A study of Mus musculus with 6 samples.

Results

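The genes described here drive a cell through mitosis: kinases and phosphatases that start and order the division, B- and A-type cyclins, the spindle checkpoint, the anaphase-promoting complex and its targets, motor kinesins, centromere and kinetochore proteins, the chromosomal passenger complex, and cytokinesis factors. The members were chosen by symbol from a list of 50 such genes, kept where the deposited table had a row of that name, which held for 48 among its 16763 genes. The list was drawn up with the read counts of these libraries known, so the order of libraries and the fold changes below describe these genes and lend no independent support to either. Sgol1, the guardian of sister centromere cohesion, is listed under its newer symbol Sgo1, whose values are given apart from the 48, and Kif11 was not analysed here. RNA had been sequenced from tumors that 4T1 cells, a mammary carcinoma line of BALB/c origin, formed in BALB/c mice, whose sex the labels give as male. The 3 model libraries came from tumor-bearing mice, and the 3 DMDD liposome libraries from such mice given DMDD in lipid vesicles. No vehicle for the model mice, and no dose, schedule or tumor age for either group, is given in the sources used here, and DMDD is named there only by its abbreviation. The 6 libraries held 13037500 to 15616840 counts. The labels do not tie libraries to animals, and the spread behind every p-value is that between these libraries, which could be technical.

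Most of these genes are transcribed in waves. Quiescent cells and cells early in the cycle keep them off through the DREAM complex, which sits on a short promoter element called the cell cycle genes homology region (CHR). In dividing cells the same element is taken over by MYBL2 and FOXM1, both encoded by members of the list, while the factor NF-Y binds nearby CCAAT boxes. The messages therefore peak together shortly before and during division and are widely read as a measure of how many cells in a tumor are cycling. In RNA from whole tumors, fewer dividing cells and less message per dividing cell cannot be told apart.

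The promoters of Mki67, Top2a and Cdk1 are shown because they carry these shared elements and belong to genes whose values are given below. Each is the 250 bases before the RefSeq start site in GRCm38.p6, on the minus strand, 5′ to 3′. Capitals mark matches, on either strand, to the CHR forms TTTGAA and TTCGAA, to CCAAT, and to the E2F site forms TTTGGCGC and TTTCGCGC, and matches of different motifs were allowed to overlap. Mki67 lies at chr7:135716380-135716629, Top2a at chr11:99024190-99024439 and Cdk1 at chr10:69352913-69353162.
Mki67: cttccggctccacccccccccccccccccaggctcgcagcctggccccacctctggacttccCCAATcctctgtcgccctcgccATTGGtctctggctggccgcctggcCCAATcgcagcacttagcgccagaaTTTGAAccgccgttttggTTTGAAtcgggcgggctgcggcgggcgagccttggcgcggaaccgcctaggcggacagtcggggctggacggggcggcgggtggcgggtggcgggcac
Top2a: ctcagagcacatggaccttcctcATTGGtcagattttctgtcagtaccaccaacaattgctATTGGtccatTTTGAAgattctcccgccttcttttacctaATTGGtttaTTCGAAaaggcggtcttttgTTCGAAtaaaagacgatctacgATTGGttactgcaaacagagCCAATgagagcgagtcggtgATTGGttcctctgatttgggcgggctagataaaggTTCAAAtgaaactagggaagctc
Cdk1: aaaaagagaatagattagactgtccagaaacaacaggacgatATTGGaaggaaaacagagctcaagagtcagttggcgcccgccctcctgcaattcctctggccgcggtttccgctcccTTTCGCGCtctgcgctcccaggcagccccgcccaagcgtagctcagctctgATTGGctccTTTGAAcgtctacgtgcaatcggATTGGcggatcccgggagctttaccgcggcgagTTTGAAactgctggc
Mki67 held 2 CHR forms and 3 CCAAT boxes in this stretch, Top2a 4 and 6, and Cdk1 2 and 3 with 1 E2F form.

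Of the 48 genes, 40 had a promoter sequence in the RefSeq table, with 43 start sites between them. The others were Aurkb, Cdc25c, Ccna2, Kif20a, Spc24, Incenp, Tpx2 and Foxm1. Over the 300 bases that end 50 bases past the start, 33 of the 43 promoters (76.7%, exact binomial 95% interval 61.4% to 88.2%) held a CHR form, against 19.2% of all 32851 promoters. CCAAT was present in 30 (69.8%, 53.9% to 82.8%) against 37.4%, and both motifs were present in 28 (65.1%) against 7.52%. E2F forms were found in 3 promoters (6.98%, 1.46% to 19.1%) against 0.813%. The start sites of 1 gene share sequence, so the intervals cover counting error only. The CHR matches sat close to the start: 32 of the 46 lay within 50 bases of it, and 22 lay past it. In the 250 upstream bases alone, 16 promoters (37.2%) held a CHR form against 17.1% of all. A match is a description of the letters and not of binding. Among the tested genes without a CHR match were Ccnb1, Cenpe, Birc5, Pttg1 and Nusap1.

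**Figure D1:**
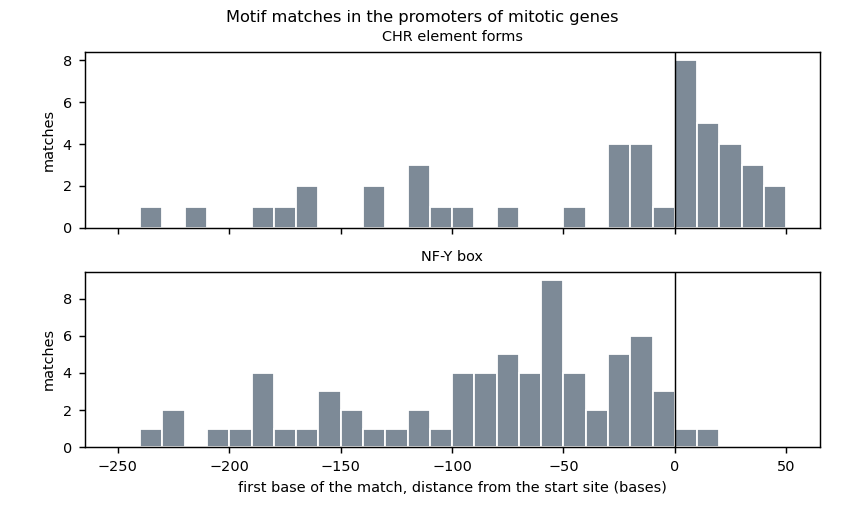
Matches to the CHR forms (top) and to the NF-Y box (bottom) in the 43 promoters of the mitotic genes; the x axis is the distance in bases of a match's first base from the start site and the y axis counts matches in steps of 10 bases. CHR matches gather around the start site, and NF-Y boxes lie mostly upstream of it.

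In the tumors the genes moved as 1 block, but the block did not separate the groups. Model replicate 1 was the lowest of the 6 libraries for 46 of the 47 genes tested, against 16.7% of all 12891 tested genes, and model replicates 2 and 3 shared all 47 of the highest values (19 and 28). The 3 DMDD liposome libraries lay between them. For 45 genes, all 3 DMDD liposome values stood above model replicate 1 and below both other model libraries, an order found in 4.96% of all tested genes. The exceptions were Mybl2, lowest in DMDD liposome replicate 1, and Kif20b, for which DMDD liposome replicate 1 reached the upper model libraries. The mean of log2 CPM (read counts scaled to a common library size with TMM factors) relative to each gene's own mean was -0.77, 0.51 and 0.56 in model replicates 1 to 3. The DMDD liposome replicates stood at -0.03, -0.15 and -0.13. Summed over the 48 genes, the level was 1887, 4366 and 4736 CPM in the model libraries and 3056, 2849 and 2846 CPM in the DMDD liposome libraries. The model libraries thus spanned a range that held the DMDD liposome libraries inside it.

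**Figure D2:**
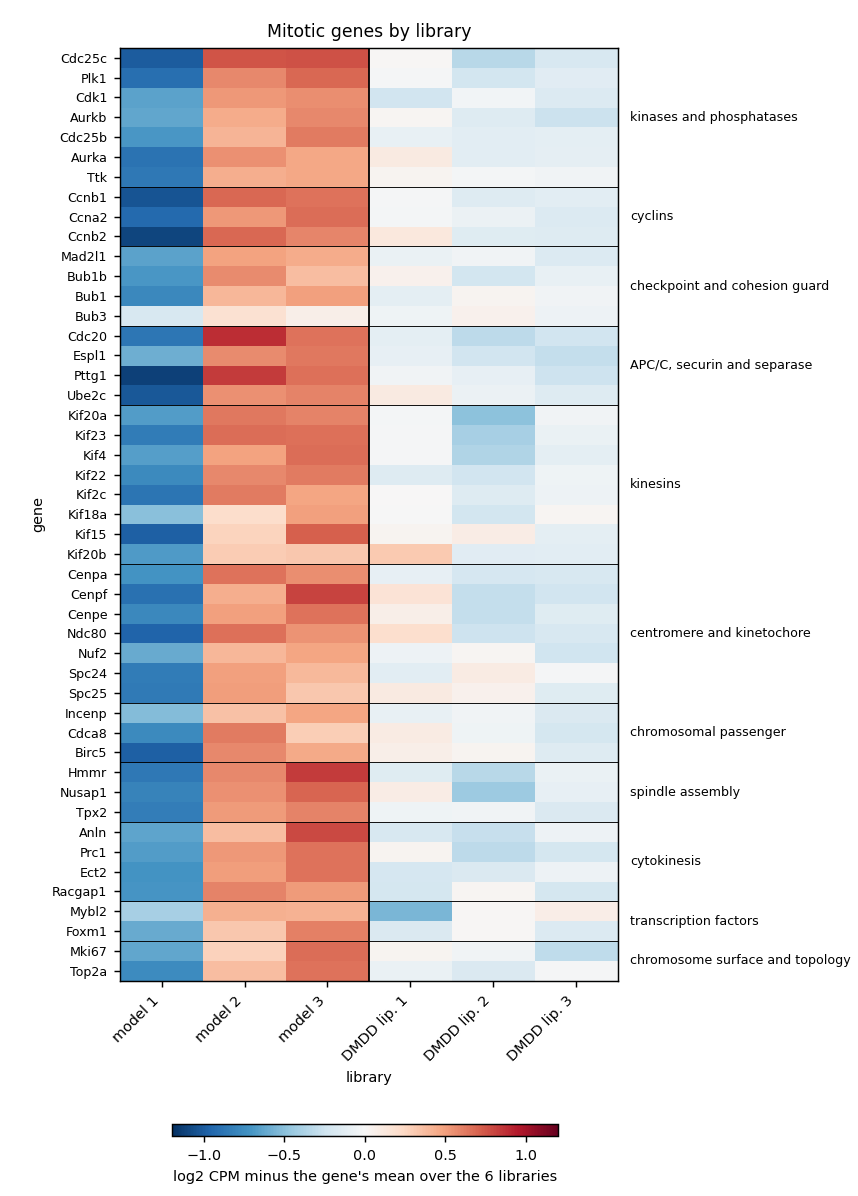
Log2 CPM of each of the 47 tested mitotic genes (rows, by role) in the 6 libraries (columns), minus the gene's mean over the libraries; blue is below that mean and red above. Model replicate 1 is lowest for 46 genes, model replicates 2 and 3 hold all the highest values, and the DMDD liposome libraries lie near 0.

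The spread between replicates differed with it. The SD of log2 CPM among model libraries had a median of 0.74 over the 47 genes, against 0.12 among DMDD liposome libraries, and it was the larger of the pair for all 47. Over all tested genes these medians were 0.21 and 0.16, with more spread in the model group for 60.3%. From the lowest to the highest library the 47 genes spanned a median of 2.59-fold. The span was at least 2-fold for 44 of them and at least 3-fold for 12. Pttg1, which encodes securin, spanned the most (3.90-fold), and Bub3, a checkpoint protein, the least (1.29-fold).

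The comparison of the groups asks how the tumors differed after DMDD liposome treatment. All 47 tested genes had a lower mean CPM in the DMDD liposome group and a negative fitted log2 fold change. Counts of lower or higher means below are read from the same fit. In it, 6289 of all 12891 tested genes were lower and 6602 higher in DMDD liposome. On the mean of log2 CPM, Kif20b, Spc25 and Kif15 stood slightly higher in the DMDD liposome group. The fitted log2 fold changes of the 47 had a median of -0.33 (0.798-fold), while the median of all tested genes was 0.01. TMM scaling largely holds the latter near 0. None of the 47 passed. Their adjusted p ran from 0.713 to 0.988 in edgeR's quasi-likelihood test with Benjamini-Hochberg adjustment, which called 0 (0%) of the 12891 genes. None reached an unadjusted p under 0.05 either, which 3.31% of all genes did in the lower direction, and for none were the groups free of overlap, which was so in that direction for 5.66%. DESeq2 called 0.408% of the genes it gave an adjusted p and none of these, with a smallest unadjusted p of 0.0854. The authors' deposited table called 0.346% of its genes and none of these, and its smallest p for them was 0.0856. For all 47 the difference of the group means was smaller than the SD among the model libraries.

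Among the kinases, Cdk1, the cyclin-dependent kinase that triggers mitosis, measured 80.8, 181 and 186 CPM in the model libraries and 108, 123 and 113 CPM in the DMDD liposome libraries. Its log2 fold change was -0.38 ± 0.29 (SE, edgeR adjusted p = 0.779). Plk1 is the polo kinase that matures centrosomes and spindles. It measured 33.1, 92.9 and 101 CPM in model and 61.7, 53.4 and 56.8 CPM in DMDD liposome. The DMDD liposome libraries thus filled the gap between the low and the high model values. Aurkb, the kinase of the chromosomal passenger complex, had 30.4, 64.0 and 69.9 CPM against 47.8, 42.0 and 39.1 CPM. Cdc25c, a phosphatase that activates Cdk1, showed the most negative fold change of the kinases and phosphatases, at -0.54 ± 0.42, from 6.36, 21.7 and 21.8 CPM to 13.0, 10.1 and 11.2 CPM. Ttk, the kinase at the head of the spindle checkpoint, had the least negative, at -0.14 ± 0.32, from 12.6, 31.0 and 31.7 CPM to 23.4, 22.6 and 22.3 CPM. Aurka, which builds spindle poles, and Cdc25b, another Cdk1-activating phosphatase, stood at -0.21 and -0.33. Plk4, which starts centriole duplication, had 1 count in model replicate 2 and 0 elsewhere and was not tested. A count of 0 here allows up to 3 counts, or 0.193 to 0.230 CPM.

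The cyclins followed the same order of libraries. Ccnb1, the cyclin partner of Cdk1, measured 20.6, 68.4 and 66.7 CPM in model and 42.2, 38.1 and 39.0 CPM in DMDD liposome, with a fitted log2 fold change of -0.39 ± 0.39 (edgeR adjusted p = 0.833). Ccnb2, a second B-type cyclin, had 31.0, 108 and 100 CPM against 73.0, 60.4 and 60.0 CPM. Model replicate 1 thus held less of both than any DMDD liposome library. Ccna2, the cyclin of replication and mitotic entry, stood at -0.33 ± 0.36.

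**Figure D3:**
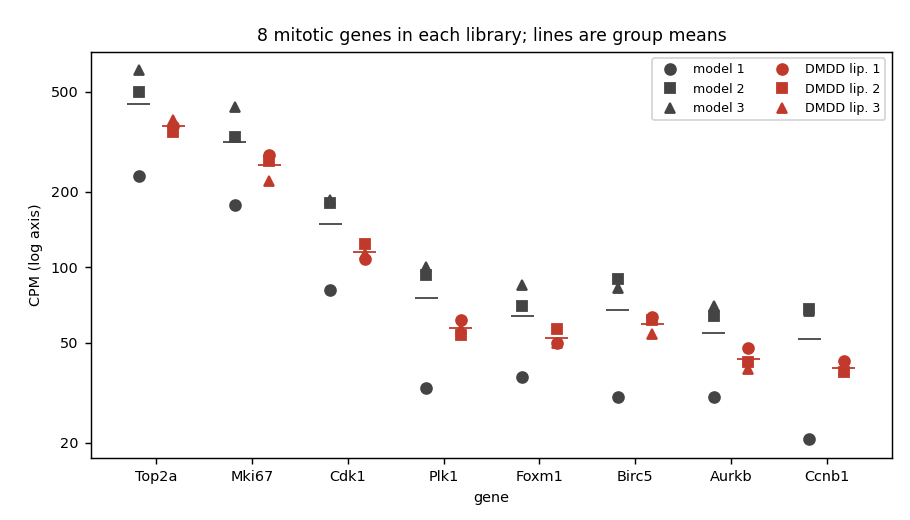
CPM (log axis) of 8 mitotic genes in each library; grey symbols are model and red symbols DMDD liposome libraries, symbol shapes give the replicate number and lines the group means. For each gene, model replicate 1 is the lowest point and the 3 DMDD liposome points lie below the other 2 model points.

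Spindle checkpoint genes, whose products hold back anaphase until every chromosome is attached, showed the same order of libraries. Mad2l1, the inhibitor that captures Cdc20, measured 28.3, 61.6 and 60.2 CPM in model and 41.8, 42.8 and 39.5 CPM in DMDD liposome. The checkpoint kinase gene Bub1 and the related Bub1b stood at log2 fold changes of -0.18 and -0.26. Bub3, their partner, had 111, 143 and 133 CPM against 122, 131 and 121 CPM, and was the flattest of the genes. Sgo1 measured 12.5, 35.1 and 32.7 CPM in model and 24.2, 17.0 and 21.5 CPM in DMDD liposome, at -0.36 ± 0.36.

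The 4 anaphase genes had a median log2 fold change of -0.50, which ran from -0.85 without model replicate 1 to -0.24 without model replicate 2. Cdc20, which activates the anaphase-promoting complex, measured 40.3, 136 and 116 CPM in model and 67.9, 59.5 and 62.9 CPM in DMDD liposome. Its log2 fold change of -0.62 ± 0.38 was the most negative of the 47 with all libraries (0.651-fold, edgeR adjusted p = 0.727). Without model replicate 2 it was -0.30, less negative than Anln at -0.42 and Hmmr at -0.42. Pttg1, the securin that this complex destroys, had 15.4, 60.0 and 53.3 CPM against 32.7, 31.4 and 28.3 CPM. Espl1, the separase that securin inhibits and that cuts cohesin, had the smallest p of the 47 (unadjusted 0.125) at -0.51 ± 0.30. Ube2c, the ubiquitin-conjugating enzyme of the complex, stood at -0.24 ± 0.37, from 42.9, 127 and 131 CPM to 93.8, 83.0 and 78.1 CPM.

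Kinesins move chromosomes and slide spindle microtubules. Kif20a, needed for cytokinesis, measured 24.6, 60.9 and 59.4 CPM in model and 38.6, 27.8 and 38.0 CPM in DMDD liposome, with a fitted log2 fold change of -0.48 ± 0.33. Kif20b, its relative, had 22.2, 44.0 and 44.5 CPM against 44.1, 32.3 and 32.4 CPM, at -0.02 ± 0.27. DMDD liposome replicate 1 thus held as much Kif20b as the 2 high model libraries. Kif23, of the centralspindlin complex, stood at -0.47, Kif4, a chromosome-bound motor, at -0.43 and Kif22, which pushes chromosome arms, at -0.42. The microtubule depolymerase Kif2c was at -0.28, Kif18a, which limits chromosome oscillation, at -0.19 and the spindle motor Kif15 at -0.16.

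Centromere and kinetochore genes join chromosomes to the spindle. Cenpa, the histone H3 variant that marks centromeres, measured 48.8, 126 and 118 CPM in model and 75.2, 69.9 and 70.1 CPM in DMDD liposome (log2 fold change -0.45 ± 0.32, edgeR adjusted p = 0.763). The large kinetochore proteins Cenpe and Cenpf stood at -0.36 and -0.39. Of the NDC80 complex, the microtubule-binding pair Ndc80 and Nuf2 stood at -0.31 and -0.26 and the kinetochore-facing pair Spc24 and Spc25 at -0.14 and -0.10. Spc25 had 9.66, 24.9 and 21.9 CPM against 18.9, 18.1 and 15.8 CPM. All 4 subunits were lowest in model replicate 1.

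Chromosomal passenger genes encode the subunits that place Aurkb on centromeres and the midzone. Birc5, which encodes survivin, measured 30.4, 90.0 and 82.7 CPM in model and 63.3, 61.6 and 54.0 CPM in DMDD liposome (log2 fold change -0.18 ± 0.36). Incenp, the scaffold of the complex, had 64.4, 118 and 128 CPM against 86.8, 89.9 and 81.6 CPM, and Cdca8, which encodes borealin, stood at -0.21. The treated libraries were close to each other for both Birc5 and Incenp.

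Among spindle assembly genes, Hmmr, a hyaluronan receptor that also binds spindle microtubules, measured 22.0, 59.7 and 71.2 CPM in model and 36.0, 31.7 and 37.7 CPM in DMDD liposome, at -0.54 ± 0.37. Tpx2, which activates Aurka, had 44.8, 114 and 121 CPM against 77.2, 77.5 and 70.8 CPM, and Nusap1, a microtubule bundler, stood at -0.43. Of the cytokinesis genes, Anln, the actin-binding protein anillin of the cleavage furrow, measured 107, 214 and 286 CPM in model and 145, 137 and 158 CPM in DMDD liposome (-0.46 ± 0.31). Racgap1, which with Kif23 forms centralspindlin, had 48.5, 120 and 113 CPM against 68.5, 80.4 and 68.4 CPM. Ect2, needed for cytokinesis, and Prc1, which bundles midzone microtubules, stood at -0.41 and -0.44. In each of these genes too, model replicate 1 was the lowest library.

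The 2 transcription factors of the list differed in their detail. Foxm1 measured 36.6, 70.2 and 85.2 CPM in model and 49.7, 56.6 and 49.9 CPM in DMDD liposome, the order of most listed genes. Mybl2 had 11.3, 20.3 and 20.2 CPM against 10.3, 15.2 and 15.9 CPM, with DMDD liposome replicate 1 level with model replicate 1 (145 and 148 counts). Their log2 fold changes were -0.30 ± 0.28 and -0.33 ± 0.28. Mki67, the coat protein of mitotic chromosomes behind the Ki-67 index, measured 177, 330 and 436 CPM in model and 279, 264 and 220 CPM in DMDD liposome (-0.31 ± 0.29, edgeR adjusted p = 0.825). Top2a, the topoisomerase that untangles sister chromatids, had 230, 501 and 608 CPM against 366, 345 and 385 CPM, at -0.29 ± 0.31.

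Per length, in the deposited FPKM averaged over the 6 libraries, Top2a was the most abundant of the 47 at 77.5, followed by Cenpa at 51.5, Ccnb2 at 46.9 and Cdc20 at 44.7. Each of these 4 spanned more from its lowest to its highest library (44.1 to 114 for Top2a, 29.8 to 77.2 for Cenpa) than the steps between them. The lowest mean FPKM were those of Kif18a (3.90), Mybl2 (4.24) and Kif4 (4.91). The median of the 47 was 16.1 FPKM, and 36 of them lay above the median of all tested genes, 9.81 FPKM.

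Without model replicate 1, the comparison of the remaining 5 libraries differed. The 2 other model libraries had all the highest values, so leaving out the lowest library moved the median log2 fold change to -0.64 (0.641-fold). In edgeR's quasi-likelihood test, 44 of the 47 then had an unadjusted p under 0.05, all lower, where 7.59% of all tested genes did in that direction. After Benjamini-Hochberg adjustment 10 of the 47 were called lower, against 0.524% of all genes. The 10 were Cdc20, Cenpa, Pttg1, Espl1, Ccnb1, Plk1, Kif22, Ect2, Hmmr and Ccna2. Cdc20 stood at -0.99 ± 0.12 (0.504-fold, edgeR adjusted p = 0.0316), Pttg1 at -0.88 ± 0.12 and Hmmr at -0.90 ± 0.13. The groups did not overlap for 46 of the 47, which was so in the lower direction for 16.6% of all genes. Because the list was drawn up with these counts known, nothing is read from these shares. The calls rest on 2 model libraries and were absent in each of the other 5 fits that left out 1 library. The median was -0.17 without model replicate 2 and -0.14 without model replicate 3.

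**Figure D4:**
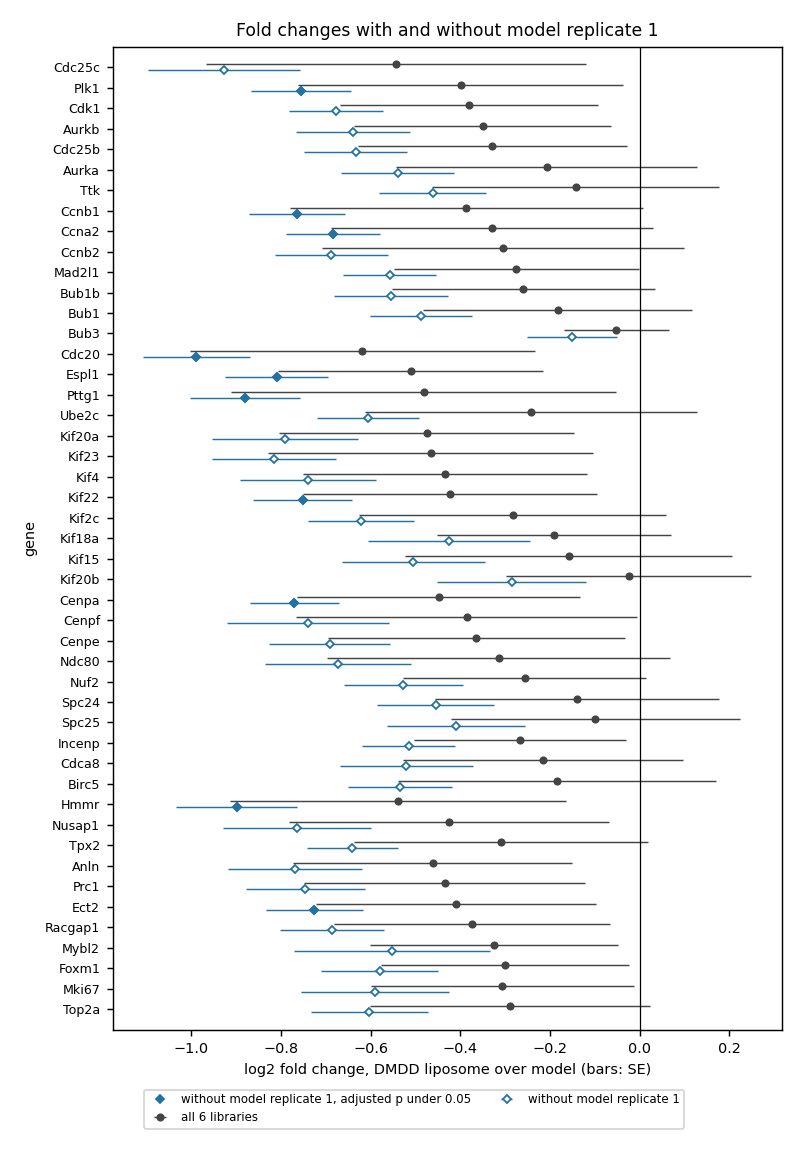
Log2 fold change of DMDD liposome over model with its SE for the 47 tested mitotic genes, with all 6 libraries (grey circles) and without model replicate 1 (blue diamonds, filled where the edgeR adjusted p was under 0.05). No gene is called with all libraries, and 10 are without that library.

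Other genes of cell division, from lists kept beside these, showed the same order of libraries in part. Among all 12891 tested genes, 6289 had a lower mean in DMDD liposome and 2148 were lowest in model replicate 1. Of 33 further centromere and kinetochore genes, 28 were lowest in model replicate 1 and 30 had a lower mean in DMDD liposome. Mad1l1, which anchors Mad2l1 at kinetochores, stood at -0.26 ± 0.17 and Cenpw, of the inner kinetochore, at -0.34 ± 0.26. Of 30 further spindle and cytokinesis genes, 24 were lowest in model replicate 1 and 29 had a lower mean, with Kif18b at -0.56 ± 0.36 and the microtubule polymerase gene Ckap5 at -0.21 ± 0.13. All 34 DNA replication genes had a lower mean in DMDD liposome (median -0.18), and 31 were lowest in model replicate 1. Rfc3, a clamp loader subunit, measured 31.7, 49.8 and 47.7 CPM in model and 33.6, 33.2 and 32.3 CPM in DMDD liposome. Pola1, the polymerase that primes replication, stood at -0.46 ± 0.23. None of these genes passed edgeR's adjusted test, and the smallest adjusted p was 0.655.

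None of the genes of the remaining lists passed edgeR's adjusted test. Condensin and cohesin genes had a median of -0.10 over 18 (Ncapg2 at -0.40 and Ncaph2 at -0.22, both condensin II subunits), mitotic entry regulators -0.13 over 16 (the kinase gene Mastl at -0.44, the phosphatase gene Cdc25a at 0.23), and subunits and regulators of the anaphase-promoting complex -0.08 over 15. Anapc10 was the only one of these 15 with an unadjusted p under 0.05 (-0.38 ± 0.15, edgeR adjusted p = 0.639), beside Anapc2 at -0.16. The DREAM and RB repressors had a median of -0.05 over 12, with 4 lowest in model replicate 1, Rb1 at -0.31 and E2f4 at -0.10. CDK inhibitors pointed both ways, with Cdkn2b at 0.93 ± 0.47 and Cdkn1c at -0.90 ± 0.48, each below 4 CPM in every library. Among G1 cyclins and kinases, Ccnd2, a D-type cyclin, measured 72.5, 36.7 and 38.7 CPM in model and 91.2, 91.6 and 78.5 CPM in DMDD liposome (0.82 ± 0.26, edgeR adjusted p = 0.626), and Ccnd3 stood at 0.23 ± 0.10. For Ccnd2, which was named for its small p, model replicate 1 was the nearest model library to the treated ones. Ccnd2 was not called with all libraries.

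**Figure D5:**
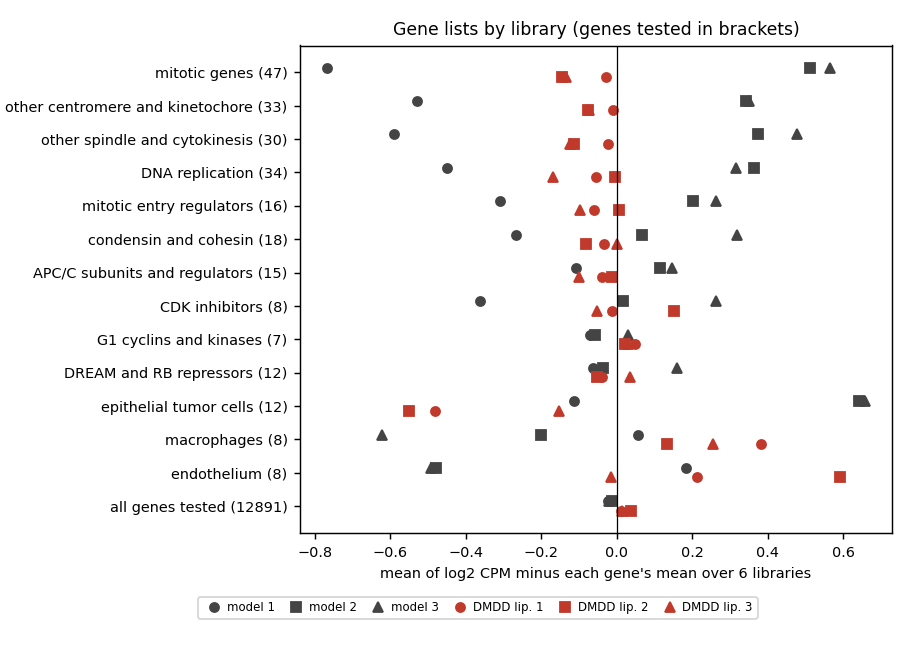
Mean over each list's tested genes of log2 CPM minus the gene's mean, 1 point a library, grey for model and red for DMDD liposome with shapes for replicates. The mitotic genes run from -0.77 in model replicate 1 to 0.56 in model replicate 3 with the DMDD liposome libraries between. All genes together stay near 0, which the TMM scaling largely sets in advance.

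Markers of the cell types in these tumors also differed between libraries. All 12 epithelial tumor cell markers were detected, as the label of a carcinoma calls for, with Epcam at 5637 to 17153 counts. Their summed level was 4609, 7394 and 7033 CPM in the model replicates against 4487, 3802 and 5109 CPM in the DMDD liposome replicates. Model replicate 1 thus stood with the DMDD liposome libraries. Of the 12, 11 had a lower mean in DMDD liposome, with a median of 0.608-fold, and 7 had an unadjusted p under 0.05, against 3.31% of all genes in that direction. EdgeR called none of them after Benjamini-Hochberg adjustment (smallest adjusted p = 0.626), while DESeq2 and the authors' deposited table each called 3. The 6 mast cell markers summed to 20.3, 81.2 and 80.4 CPM in the model libraries and 4.60, 11.5 and 19.0 CPM in the DMDD liposome libraries, so model replicate 1 was the low model library here too. All 5 that were tested had a lower mean in DMDD liposome (median 0.185-fold), 4 with an unadjusted p under 0.05. None was called by edgeR, 2 were called by DESeq2 and 1 in the authors' deposited table. The 6 neutrophil markers summed to 189 to 240 CPM in model and 97.6 to 171 CPM in DMDD liposome. All 5 tested had a lower mean, 2 with an unadjusted p under 0.05. EdgeR called none of these after adjustment, and DESeq2 and the authors' deposited table each called 1. The 8 macrophage markers summed to 1453 to 2701 CPM in model and 2771 to 3809 CPM in DMDD liposome. Of these, 7 had a higher mean in DMDD liposome, 1 with an edgeR unadjusted p under 0.05, and 1 a lower mean. The 8 endothelial markers summed to 174 to 323 CPM in model and 261 to 375 CPM in DMDD liposome. All 8 had a higher mean, 4 with an edgeR unadjusted p under 0.05. In that direction 559 of all 12891 tested genes had such a p. Neither list held a gene called by edgeR, DESeq2 or the authors' deposited table. T cell markers summed to 31.5 to 39.7 CPM and 19.6 to 88.1 CPM, fibroblast markers to 4273 to 7848 CPM and 4117 to 11480 CPM. Skeletal muscle markers reached 244 CPM in DMDD liposome replicate 3 and epidermal markers 221 CPM in model replicate 2. The part of these cell types in the values of the mitotic genes was not tested.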

How the data were processed

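Total RNA for the 6 libraries was prepared for sequencing with NEBNext Ultra reagents, per the labels. Groups and replicate numbers come from the sample descriptions, which call the animals rats where the organism and strain are mouse. The authors' table holds raw read counts per gene symbol, a normalized signal that the authors made by dividing counts by 1 size factor a library, and FPKM, per the file headers. The log2 fold changes that the authors deposited put model over DMDD liposome, whereas fold changes here put DMDD liposome over model, and the table's p-values were deposited with DESeq2 and mm9 named in the submitters' processing notes. Not given in the sources used here are aligner, counter, annotation and strand setting, and reads shared with pseudogenes or overlapping genes cannot be told apart.

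For the tests, edgeR 4.0.16 in R 4.3.3 took the deposited counts of all genes: filterByExpr (minimum count 10, minimum total 15) left 12891 of 16763 genes, and TMM scaling, the two-sided quasi-likelihood test and Benjamini-Hochberg adjustment at 0.05 compared the groups. SEs come from the quasi-likelihood F, and log2 CPM used a prior count of 2. Alternatives were DESeq2 size factors, no filter, DESeq2 1.42.0, a replicate block and leaving out each library. The tests were tested on simulated data. Members and lists were chosen with earlier results of these data known. All members are named; values per library are given for 8 of them (Mki67, Top2a, Cdk1, Ccnb1, Plk1, Aurkb, Birc5 and Foxm1) and for the highest and lowest fold change of each role, with Pttg1 and Sgo1 added after their values were seen. Of each other list, the 2 genes with the smallest p are named. Promoters come from RefSeq tables matched by symbol.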

Additional observations from a re-analysis of the deposited data

How the results depend on the processing

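No mitotic gene was called under any of the alternatives run except leaving out model replicate 1. Without that library edgeR called 112 genes in all and 10 mitotic genes (0 of both without each of the other libraries, so the range is 0 to 112 and 0 to 10), 44 mitotic genes had an unadjusted p under 0.05 (range 0 to 44) and 46 had groups that did not overlap (range 0 to 46). By DESeq2 59 genes were called in all, none of them mitotic. The median log2 fold change of the mitotic genes stayed negative, from -0.64 to -0.14 when 1 library was left out, with -0.33 for DESeq2 size factors, -0.34 without the filter on low counts and -0.34 by DESeq2.

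With the replicate block the median was -0.22 and no mitotic gene was called. The replicate numbers were not taken as pairs: deviations from the group means correlated at 0.0876, 0.114 and 0.121 across genes for same-numbered libraries, although each library correlated best with its own number. Direction changed for genes with small fold changes. Kif20b ran from -0.29 to 0.12 when 1 library was left out, positive without model replicate 2 or 3 or DMDD liposome replicate 2 or 3, and stood at 0.017 in the replicate block fit. Spc25 ran from -0.41 to 0.15 and Ttk from -0.46 to 0.046, positive without model replicate 2 or 3. Birc5 ran from -0.53 to 0.068 and Bub3 from -0.15 to 0.023, positive without model replicate 2, as was the chromosomal passenger median (0.068). The cause was not tested. The share of promoters with a CHR form was 37.2% when only the upstream bases were searched. The lowest count of a tested mitotic gene in any library was 83 (Cdc25c).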

Other observations

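Beside the epithelial tumor cell markers, the order of the libraries was another. The mean of the mitotic genes minus that of the 12 epithelial markers, both on log2 CPM relative to each gene's own mean, was -0.65, -0.13 and -0.09 in the model replicates. In the DMDD liposome replicates it was 0.45, 0.40 and 0.02. This measure was chosen after the values were seen and was not tested. Every model library lay below every DMDD liposome library on this difference, the reverse of the direction of the mitotic genes' fold changes. The nearest libraries of the groups stood at -0.09 and 0.02. Of the 12 subtracted markers, 11 were themselves lower in DMDD liposome (median 0.608-fold), which by itself raises the difference there. Model replicate 1 was the lowest library for the mitotic genes alone and also for this difference.

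Tested genes outside the list were looked at by promoter. Genes of the other cell division lists were kept among them, and their part in the shares was not tested. Model replicate 1 lay below all 3 DMDD liposome libraries and model replicates 2 and 3 above them for 68 of the 660 genes with both a CHR form and a CCAAT box (10.3%), and for 182 of the 4907 with neither (3.71%). The median log2 fold change was -0.01 and 0.00 in these groups. Within the mitotic genes the order held for 29 of 30 with a CHR form, Kif20b being the exception, and for 8 of 9 without one, Mybl2 being the exception. These shares are a description, and genes are not independent of each other.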
